A study of Mus musculus with 12 samples.

Results

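The 45 genes described here encode the Polycomb and silencing chromatin machinery of mouse embryonic fibroblasts, and were taken by name from 11481 genes with RNA-seq values in either of 2 deposited tables. They comprise 5 core and 5 accessory subunits of Polycomb repressive complex 2 (PRC2), 19 genes of Polycomb repressive complex 1 (PRC1), and 4 erasers of Polycomb marks. The other 12 are 3 heterochromatin protein 1 (HP1) genes, 4 DNA methylation genes and 5 genes of histone H3 lysine 9 (H3K9) methylation. All 45 were listed in the table of mock-treated cells and 43 in the table of doxorubicin-treated cells, where Phf19 and Dnmt3b were not listed. The fibroblasts were primary cultures of a hybrid 129/B6 strain background, either wild type (lincRNA-p21+/+, WT) or knockout (lincRNA-p21-/-, KO). Each genotype was measured after mock treatment and after 24 h of doxorubicin, labelled as 0.5 mM, in 3 libraries per group, stated to be biological replicates. Doxorubicin is an anthracycline that traps topoisomerase II and breaks DNA. LincRNA-p21 is a long noncoding RNA transcribed beside Cdkn1a and induced by p53. The study compared the genotypes with and without DNA damage, with Polycomb target genes named in its title. The genotypes are as labelled: the lincRNA-p21 transcript was not analysed here and could not check them.

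PRC2 places methyl groups on lysine 27 of histone H3 (H3K27me3) through EZH1 or EZH2, which need EED and SUZ12 to be active. PRC1 attaches ubiquitin to histone H2A through RING1 or RNF2 paired with a PCGF protein. Canonical PRC1 carries a CBX reader of H3K27me3 and a PHC protein, and variant PRC1 carries RYBP or YAF2. Constitutive heterochromatin uses other marks: H3K9 methylation read by HP1, and DNA methylation copied after replication by DNMT1 with UHRF1. In fibroblasts Polycomb is best known for silencing the Ink4a/Arf locus and the Hox clusters, and EZH2 is known to be abundant in dividing cells and scarce in senescent ones.

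Values are read counts scaled to library size (CPM), in which the spacing of values gave 14327048 to 20511907 reads per library. The 2 tables are separate, but each library was scaled to its own total, with 99.2% to 99.6% of it in the listed genes, so levels were set across the tables. All genes listed had more than 2 CPM in the 3 WT libraries of their table. Of 16 fibroblast markers, 15 were listed in both tables, with summed levels of 54786 to 73067 CPM in mock and 35343 to 46559 CPM in doxorubicin libraries. Some markers of other cell types (among them Epcam and Cdh1, Pecam1 and Cdh5, Ptprc, Sox2, Myod1) were not listed. Other markers of the same cell types were listed. The 2 of 10 epithelial markers listed (Krt18 and Krt19) summed to 6.43 to 37.4 CPM in mock and 81.8 to 254 CPM in treated libraries. The blood cell markers listed, 1 of 12 in mock (Cd68) and 2 of 12 in treated libraries (Cd68 and Cd14), summed to 2.42 to 58.3 CPM and 69.0 to 157 CPM. The 2 of 10 endothelial markers listed in each table (Kdr, with Emcn in mock and Vwf in treated cells) summed to 3.95 to 10.6 CPM and 29.8 to 38.9 CPM. The 3 of 12 neural markers listed (Tubb3, Nes and Stmn2) summed to 217 to 535 CPM and 419 to 607 CPM. The skeletal muscle markers listed, 2 of 10 in mock (Acta1 and Des) and 3 of 10 in treated cells (with Chrna1), summed to 30.9 to 434 CPM in mock and 25.0 to 216 CPM in treated libraries. Their part in the members' differences was not tested. The summed level of 30 proliferation genes was highest in replicate 2 of every group, and no library was tested as an outlier. In doxorubicin-treated WT replicate 2 the sum was 1315 CPM, against 539 and 652 CPM in the other 2 libraries. In doxorubicin-treated KO replicate 2 it was 688 CPM, against 492 and 480 CPM.

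Among the members called the same way after doxorubicin in both genotypes, the promoters of the 3 that fell most and the 2 that rose most, by the mean of the 2 differences, are shown first, because the results below turn on these genes. Each is the RefSeq window of 250 bases before to 50 after a gene start (GRCm38.p6), and where several starts were listed the one with the most CG dinucleotides was taken, a choice made after the matches were known. Capitals mark matches, on either strand, to an E2F-type motif (TTTGGCGC, TTTCCCGC, TTTCGCGC or TTTGCCGC) or a CHR-type motif (TTTGAA), both known from promoters of cell cycle genes. The windows are Uhrf1 at chr17:56304063-56304362 (plus strand), Dnmt1 at chr9:20952574-20952873 (minus strand, the most downstream of 3 listed starts), Cbx3 at chr6:51470366-51470665 (plus), Eed at chr7:89980927-89981226 (minus) and Pcgf3 at chr5:108461009-108461308 (plus).
Uhrf1: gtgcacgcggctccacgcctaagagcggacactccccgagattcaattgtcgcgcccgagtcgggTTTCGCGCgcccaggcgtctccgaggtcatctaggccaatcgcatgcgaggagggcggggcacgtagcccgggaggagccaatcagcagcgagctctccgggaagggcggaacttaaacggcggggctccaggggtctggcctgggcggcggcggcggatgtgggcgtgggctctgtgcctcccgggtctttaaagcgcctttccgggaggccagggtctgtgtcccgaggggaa
Dnmt1: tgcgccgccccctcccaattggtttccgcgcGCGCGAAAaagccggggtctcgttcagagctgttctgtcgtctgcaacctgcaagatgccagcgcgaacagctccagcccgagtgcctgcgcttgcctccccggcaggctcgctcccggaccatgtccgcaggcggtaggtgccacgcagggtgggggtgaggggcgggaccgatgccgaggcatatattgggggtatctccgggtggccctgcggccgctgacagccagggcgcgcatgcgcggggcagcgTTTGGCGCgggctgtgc
Cbx3: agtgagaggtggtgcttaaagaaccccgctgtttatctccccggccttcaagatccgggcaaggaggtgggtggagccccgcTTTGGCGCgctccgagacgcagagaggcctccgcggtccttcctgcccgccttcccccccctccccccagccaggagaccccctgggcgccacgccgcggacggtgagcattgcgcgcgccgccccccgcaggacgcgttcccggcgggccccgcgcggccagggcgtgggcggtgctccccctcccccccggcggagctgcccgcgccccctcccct
Eed: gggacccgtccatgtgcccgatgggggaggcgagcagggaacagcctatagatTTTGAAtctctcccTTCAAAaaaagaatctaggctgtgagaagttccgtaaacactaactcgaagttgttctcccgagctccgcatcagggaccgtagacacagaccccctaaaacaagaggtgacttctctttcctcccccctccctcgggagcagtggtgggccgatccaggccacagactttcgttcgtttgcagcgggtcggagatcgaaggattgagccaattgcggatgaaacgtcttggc
Pcgf3: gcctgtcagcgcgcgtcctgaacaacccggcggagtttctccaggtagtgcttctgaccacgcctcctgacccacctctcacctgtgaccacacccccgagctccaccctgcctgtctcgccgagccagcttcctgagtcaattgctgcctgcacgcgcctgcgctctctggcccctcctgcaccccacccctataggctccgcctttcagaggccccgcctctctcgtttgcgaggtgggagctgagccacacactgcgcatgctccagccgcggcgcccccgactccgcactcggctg

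The Uhrf1 and Cbx3 windows held 1 E2F-type match each and the Dnmt1 window held 2. The Eed window held none and had 2 CHR-type matches, 1 on each strand, and the Pcgf3 window had neither motif. Of the 45 members, 40 had a window, and 6 of these (15.0%) held the E2F-type motif at a listed start: Ezh2, Suz12, Phf19, Cbx3, Dnmt1 and Uhrf1. The motif occurred in 2.26% of all 32851 windows, in 2.6% of all 27025 genes with a window, and in 4.83% of the 7191 genes of both tables that had one. The 40 members include Phf19 and Dnmt3b, which were not listed in both tables. Shares over the genes of both tables are therefore not over a like set. The CHR-type motif occurred in 9 of the 40 members (22.5%), in 13.4% of the measured genes, in 20.2% of all genes with a window and in 17.9% of all windows. Over all 347 measured genes with the E2F-type motif, the median doxorubicin difference was -0.11 in WT and -0.08 in KO on the log2 scale, against 0.01 and 0.04 over all genes.

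After doxorubicin, the genes that maintain DNA methylation and 2 of the 3 HP1 genes fell in both genotypes, whereas a PRC2 subunit, Eed, and 2 PRC1 subunits, Rnf2 and Pcgf3, rose. Differences are given as doxorubicin minus mock on the log2(CPM + 1) scale, which understates changes of low genes, from a limma fit adjusted over all 10292 genes in both tables at a threshold of 0.05. In WT cells 11 of 43 members fell and 6 rose, against 21.4% of all genes falling and 25.9% rising, and 47.3% called in either direction. In KO cells 11 fell and 5 rose, against 14.6% and 19.9% of all genes, and 34.5% in either direction. The members' median difference was -0.21 in WT and -0.16 in KO, where all genes had 0.01 and 0.04. The share of members called in either direction, 39.5% and 37.2%, was below the background in WT and near it in KO. The 3 treated libraries lay wholly above the mock libraries for 9 members and wholly below for 13 in WT, against 29.4% and 25.3% of all genes. In KO these were 6 and 16 members, against 27.1% and 21.5%. With the replicate block, which compares libraries of the same number, 6 members rose and 18 fell in WT, against 32.1% and 28.2% of all genes (60.3% in either direction). In KO 5 rose and 16 fell with it, against 27.1% and 21.8% (48.8% in either direction). With libraries centred on their medians, which moved the median of all genes in WT to -0.10, the split was 4 higher and 16 lower in WT, and 2 higher and 15 lower in KO. Of all genes, 2202 were then higher and 2944 lower in WT (50% called), and 1669 higher and 2027 lower in KO (35.9%). Quantile normalization gave 4 members higher and 15 lower in WT, where 2308 of all genes were higher and 2771 lower (49.3%). These are bulk RNA levels, in which fewer cells of a type and less RNA per cell cannot be told apart.

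**Figure D1:**
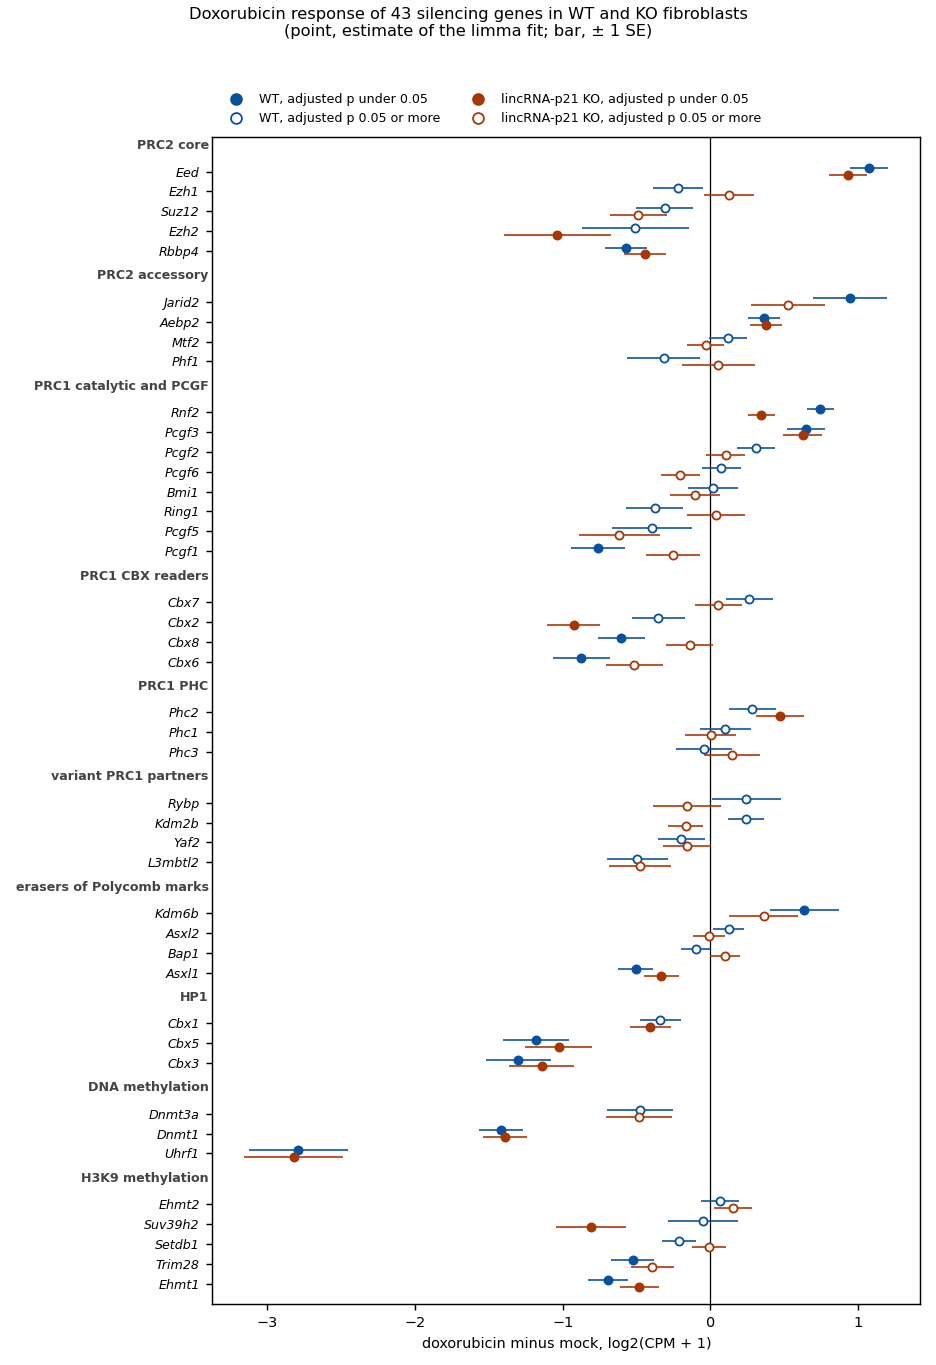
Doxorubicin minus mock difference in log2(CPM + 1), on the x axis, for 43 genes grouped by role, in WT (blue) and KO (brown) fibroblasts; points are limma estimates, bars 1 SE, and filled points have an adjusted p under 0.05. Uhrf1 lies farthest to the left, at -2.79 and -2.82, and Eed farthest to the right, at 1.08 and 0.93.

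Uhrf1, which reads hemimethylated DNA and brings DNMT1 to it, had the largest difference of any member. Its level was 43.6, 58.0 and 45.0 CPM in mock WT libraries and 5.41, 11.1 and 3.67 CPM after doxorubicin. In KO libraries it was 64.9, 81.8 and 48.4 CPM and then 9.66, 10.1 and 5.47 CPM. The groups did not overlap in either genotype, and the highest treated library was WT replicate 2, the one with the high proliferation sum. The difference was -2.79 in WT (SE 0.335, adjusted p = 9.83e-05) and -2.82 in KO (SE 0.335, adjusted p = 0.000206). Dnmt1, the maintenance methyltransferase, went from 87.9, 103 and 90.7 CPM to 41.0, 34.1 and 29.2 CPM in WT, and from 106, 132 and 108 CPM to 49.97, 43.2 and 37.4 CPM in KO. It too was lower in every treated library than in any mock library, by -1.42 in WT (adjusted p = 4.88e-05) and -1.39 in KO (adjusted p = 0.000122). Dnmt3a, a de novo methyltransferase, was at 37.2 ± 4.81 CPM (SD, n = 3) in mock and 26.6 ± 5.21 CPM in treated WT cells. Its difference of -0.48 in each genotype missed the threshold without the replicate block and passed with it (adjusted p = 0.101 and 0.0153 in WT, 0.117 and 0.018 in KO). Without the block it passed in WT under both scalings, and in KO without treated replicate 1. Dnmt3b, the other de novo enzyme, was near the listing limit in mock cells, at 2.05 ± 0.0295 CPM in WT libraries and 2.25 ± 0.417 CPM in KO libraries.

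The HP1 genes encode the chromodomain proteins that bind methylated H3K9. Cbx3 (HP1 gamma) was at 20.7, 26.5 and 24.4 CPM in mock WT libraries and 11.2, 9.99 and 6.51 CPM in treated ones. In KO it went from 27.8, 33.4 and 25.9 CPM to 15.2, 13.9 and 9.22 CPM. No treated library reached a mock library, and the fall was -1.30 in WT (adjusted p = 0.000749) and -1.14 in KO (adjusted p = 0.0027). The GENCODE mouse annotation names several processed Cbx3 pseudogenes, and how reads shared with them were counted is not given in the sources used here. Cbx5 (HP1 alpha) went from 126, 192 and 152 CPM to 75.2, 83.3 and 49.4 CPM in WT, and from 158, 234 and 162 CPM to 93.6, 99.0 and 75.0 CPM in KO. These groups were also separate, with differences of -1.18 (adjusted p = 0.00153) and -1.03 (adjusted p = 0.00531). Cbx1 (HP1 beta) differed less, by -0.34 in WT (adjusted p = 0.0653, and 0.0279 with the block) and -0.41 in KO (adjusted p = 0.0407). The KO call of Cbx1 was lost without any 1 KO library except treated replicate 1.

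Among the H3K9 methylation genes, Ehmt1 (GLP) fell and its partner Ehmt2 (G9a) did not pass the test. Ehmt1 went from 64.3 ± 2.94 to 39.7 ± 6.58 CPM in WT (difference -0.69, adjusted p = 0.00156) and in KO from 69.3 ± 2.00 to 49.7 ± 7.05 CPM (difference -0.48, adjusted p = 0.0168; each mean ± SD, n = 3). Ehmt2 was at 150 ± 16.2 and 157 ± 15.2 CPM in WT, a difference of 0.06 (SE 0.128). Trim28 (KAP1), the corepressor that brings SETDB1 to zinc finger proteins, fell in WT from 278 ± 14.5 to 195 ± 32.0 CPM (difference -0.53, adjusted p = 0.0122). In KO its difference of -0.39 missed the threshold without the block (adjusted p = 0.0578) and passed with it (0.00903). Setdb1 itself, which methylates H3K9 at retroelements, differed by -0.21 in WT (adjusted p = 0.153) and -0.01 in KO. Suv39h2, an enzyme of pericentromeric H3K9 trimethylation, fell in KO from 6.69, 9.65 and 5.53 CPM to 3.39, 4.21 and 3.35 CPM (difference -0.81, adjusted p = 0.0215). In WT it was at 4.26, 6.61 and 5.55 CPM and then at 4.16, 7.31 and 4.51 CPM, and the groups overlapped. The highest treated WT value was again that of replicate 2.

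**Figure D2:**
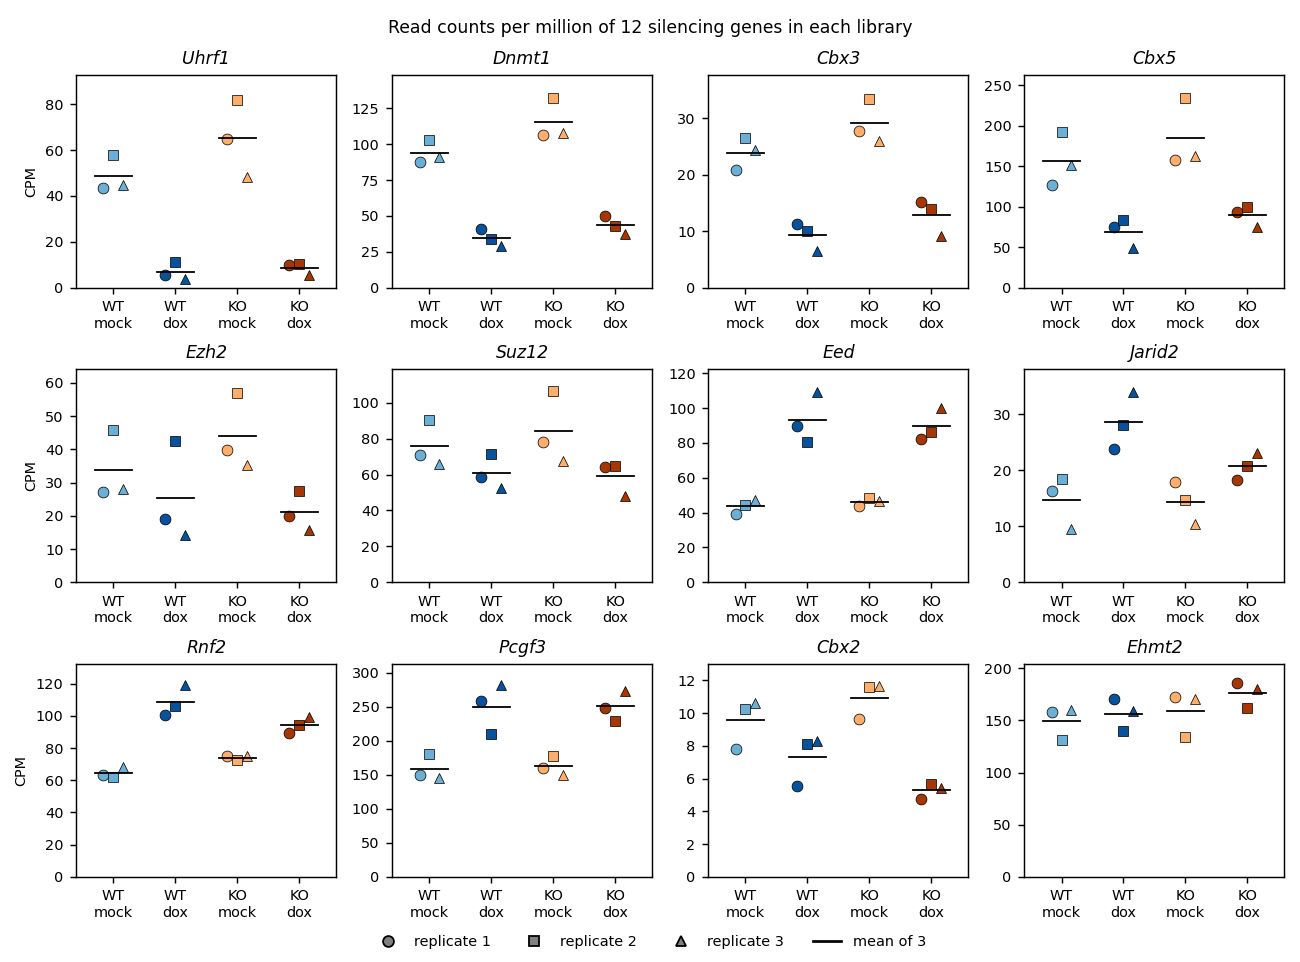
CPM (y axis, from 0) of 12 genes in each of the 12 libraries, by genotype and treatment on the x axis; marker shapes give the replicate number and lines the mean of 3. Uhrf1, Dnmt1, Cbx3 and Cbx5 are lower in all treated libraries than in any mock library of the same genotype, Eed, Rnf2 and Pcgf3 are higher, and Ezh2 in treated WT replicate 2 (42.5 CPM) lies within the mock range.

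The PRC2 core did not move as one. Eed, which binds H3K27me3 and stimulates the enzyme, was at 39.0, 44.4 and 47.3 CPM in mock WT libraries and 90.0, 80.8 and 109 CPM after doxorubicin. In KO libraries Eed was at 43.9, 48.3 and 46.4 CPM and then at 82.4, 86.0 and 99.99 CPM. Every treated library exceeded every mock library, and the rise was 1.08 in WT (SE 0.129, adjusted p = 9.96e-05) and 0.93 in KO (SE 0.129, adjusted p = 0.00043). Ezh2, the catalytic subunit of dividing cells, went the other way in KO, from 39.7, 57.1 and 35.3 CPM to 20.0, 27.4 and 15.8 CPM (difference -1.04, SE 0.365, adjusted p = 0.0466). The KO groups were separate, but leaving out any 1 library except treated replicate 2 ended that call. In WT it was at 27.2, 45.8 and 28.1 CPM in mock and 19.02, 42.5 and 14.3 CPM in treated libraries, so the groups overlapped. The WT difference of -0.51 missed the threshold without the block (adjusted p = 0.274) and passed with it (0.0181). Without treated WT replicate 2, the WT difference was -0.95 (adjusted p = 0.0265). Leaving out any other WT library gave no call. Over these fits the WT difference ranged from -0.95 to -0.19, with adjusted p up to 0.708. Without the block, Ezh2 in WT also did not pass under quantile normalization or median centring.

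Suz12, the scaffold of PRC2, was lower after doxorubicin by -0.31 in WT and -0.49 in KO. It missed the threshold without the block and passed with it (adjusted p = 0.21 and 0.0262 in WT, 0.0723 and 0.0045 in KO), and in KO it also passed without the block under both scalings tried (quantile normalization and median centring) and without mock replicate 3. Rbbp4, a histone chaperone shared with other complexes, fell from 210 ± 15.1 to 142 ± 15.95 CPM in WT (difference -0.57, adjusted p = 0.00678) and in KO from 245 ± 30.3 to 181 ± 30.5 CPM (difference -0.44, adjusted p = 0.0318). The KO call of Rbbp4 was lost when the KO libraries were fitted alone (adjusted p = 0.0699). Ezh1, the catalytic subunit of non-dividing cells, did not pass the test, with 21.5 ± 1.16 and 18.7 ± 5.21 CPM in WT and 19.8 ± 2.10 and 21.7 ± 1.12 CPM in KO.

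Of the accessory subunits, Jarid2, which helps bring PRC2 to its targets, rose in WT from 16.3, 18.4 and 9.43 CPM to 23.7, 28.1 and 33.9 CPM (difference 0.95, adjusted p = 0.00965). In KO it was at 17.9, 14.6 and 10.4 CPM and then at 18.3, 20.7 and 23.1 CPM. The KO groups were also separate, but the difference of 0.53 did not pass (adjusted p = 0.127). Aebp2, which binds PRC2 together with JARID2, rose from 107 ± 8.64 to 138 ± 18.0 CPM in WT (adjusted p = 0.0183) and in KO from 121 ± 4.97 to 158 ± 8.07 CPM (adjusted p = 0.0209). The Aebp2 calls were lost in both genotypes under quantile normalization and under median centring. The Polycomb-like genes Mtf2 and Phf1 had differences between -0.32 and 0.12, and only Phf1 in WT passed with the block (-0.32, adjusted p = 0.0353). Phf19, the third Polycomb-like gene, was listed in mock cells alone, at 3.91 ± 1.44 CPM in WT libraries and 5.96 ± 2.40 CPM in KO libraries.

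The 2 catalytic subunits of PRC1 differed. Rnf2 (RING1B) was at 63.4, 61.7 and 68.1 CPM in mock WT libraries and 101, 106 and 119.3 CPM in treated ones. In KO it went from 74.9, 72.4 and 74.8 CPM to 89.2, 94.5 and 99.4 CPM. The groups were separate in both genotypes, and the rise was 0.74 in WT (SE 0.0917, adjusted p = 0.000114) and 0.35 in KO (SE 0.0917, adjusted p = 0.0137). The KO call of Rnf2 was lost under median centring (adjusted p = 0.0611) and without treated KO replicate 3 (0.0536). Ring1 (RING1A) did not pass the test, with 15.7 ± 1.89 and 12.0 ± 3.15 CPM in WT and 15.6 ± 1.86 and 16.1 ± 3.05 CPM in KO.

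PCGF proteins define which PRC1 a RING subunit joins. Pcgf3, of a variant PRC1, rose from 150.4, 180.4 and 145.8 CPM to 258.4, 209.5 and 282.5 CPM in WT (difference 0.65, adjusted p = 0.00214). In KO it rose from 159.7, 177.2 and 150.1 CPM to 248.8, 229.9 and 273.7 CPM (difference 0.62, adjusted p = 0.00416). All treated libraries were above all mock libraries. Pcgf1, of another variant PRC1, fell in WT from 8.08 ± 0.748 to 4.43 ± 1.17 CPM (difference -0.76, adjusted p = 0.0058) and was at 7.92 ± 1.64 and 6.42 ± 0.364 CPM in KO (difference -0.25, adjusted p = 0.316). Bmi1 (Pcgf4), the canonical PCGF known to repress Ink4a/Arf, was at 50.7 ± 7.81 and 51.5 ± 9.51 CPM in WT and 62.3 ± 11.2 and 57.4 ± 4.59 CPM in KO. Its differences of 0.02 and -0.10 had SEs of 0.169. Pcgf2 (Mel18), Pcgf5 and Pcgf6 did not pass in either genotype, with differences between -0.62 and 0.31.

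Among the CBX readers of canonical PRC1, Cbx6 fell in WT from 84.2, 61.3 and 81.4 CPM to 51.1, 33.9 and 38.0 CPM (difference -0.87, adjusted p = 0.00355). In KO its difference of -0.52 missed the threshold without the block (adjusted p = 0.0593) and passed with it (0.00593), and without it under both scalings and without treated replicate 1. Cbx2 fell in KO from 9.61, 11.6 and 11.7 CPM to 4.74, 5.68 and 5.42 CPM (difference -0.93, adjusted p = 0.00258). In WT it was at 7.82, 10.3 and 10.6 CPM and then at 5.55, 8.14 and 8.29 CPM, a difference of -0.35 that passed only with the block (adjusted p = 0.124 without and 0.0317 with it). Cbx8 fell in WT from 6.74 ± 1.07 to 4.06 ± 0.274 CPM (difference -0.61, adjusted p = 0.00909), and its KO difference was -0.14 (adjusted p = 0.529). Cbx7, known as a repressor of Ink4a/Arf, lay near the listing limit, at 2.18 ± 0.166 and 2.84 ± 0.534 CPM in WT, and did not pass.

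The PHC genes encode the polymerizing subunits of canonical PRC1. Phc2 rose in KO from 171 ± 38.1 to 234 ± 19.8 CPM (difference 0.47, adjusted p = 0.0401), a call lost under median centring, with the KO libraries fitted alone, and without any 1 KO library except mock replicate 2. In WT its difference was 0.29 (adjusted p = 0.164), and Phc1 and Phc3 did not pass in either genotype. None of the variant PRC1 partners (Rybp, Yaf2, Kdm2b and L3mbtl2) passed without the block in the values as deposited. L3mbtl2 had differences of -0.50 in WT (adjusted p = 0.0686, and 0.0144 with the block) and -0.48 in KO (0.0964, and 0.0217 with the block). Without the block it passed under median centring in both genotypes, and in WT also under quantile normalization and without treated replicate 1.

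Of the erasers, Kdm6b (JMJD3), which removes H3K27 methylation, rose in WT from 79.4, 75.7 and 90.4 CPM to 118, 95.7 and 182 CPM (difference 0.63, adjusted p = 0.0432). The groups were separate, but leaving out any 1 of 5 of the 6 WT libraries, all except treated replicate 2, ended the call, as did quantile normalization and median centring. In KO Kdm6b was at 92.6, 74.0 and 90.9 CPM and then at 109, 84.3 and 145 CPM (difference 0.36, adjusted p = 0.254). Asxl1, partner of the H2A deubiquitinase BAP1, fell in WT from 81.4 ± 3.54 to 57.5 ± 8.64 CPM (adjusted p = 0.00509) and in KO from 88.9 ± 6.91 to 70.4 ± 5.57 CPM (adjusted p = 0.0497). The KO call of Asxl1 was at the threshold. It was lost with a pseudocount of 0.1, with the KO libraries fitted alone, and without any 1 KO library except treated replicate 1. Bap1 and Asxl2 did not pass, with differences between -0.10 and 0.12.

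Of the members called in WT, 7 of the 11 that fell (63.6%) and 4 of the 6 that rose (66.7%) were called the same way in KO, or 63.6% and 80% of the KO calls. These were Uhrf1, Dnmt1, Cbx3, Cbx5, Ehmt1, Rbbp4 and Asxl1, which fell, and Eed, Rnf2, Pcgf3 and Aebp2, which rose. The overlap of calls over all genes was not counted, so these shares have no background to be set against. A further 11 members were called in 1 genotype and not in the other. Of the WT calls, 14 of 17 held when each library was left out in turn, the exceptions being Aebp2, Kdm6b and Trim28. Aebp2 was lost without mock replicate 1 or treated replicate 1 or 3, and Trim28 without treated replicate 3 (adjusted p = 0.0519). Of the KO calls, 7 of 16 held (Eed, Pcgf3, Cbx2, Cbx3, Cbx5, Dnmt1 and Uhrf1), and treated KO replicate 3 and mock KO replicates 1 and 2 had the largest effect on their number. Without them 7, 10 and 10 members were called, and 24.7%, 27.1% and 27.4% of all genes, against 34.5% with all libraries. Ehmt1 in KO was lost without mock replicate 2 or treated replicate 3, and Suv39h2 also without treated replicate 1.

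Whether the response differed between the genotypes was tested directly as an interaction. No member passed, with or without the replicate block (smallest adjusted p = 0.922 and 0.387). No gene of the 10292 passed, with 468 (4.55%) at an unadjusted p under 0.05, among them 4 members. These 4 were Rnf2, with an interaction of -0.40 (SE 0.13), Kdm2b at -0.41 (SE 0.17), Cbx2 at -0.57 (SE 0.252) and Suv39h2 at -0.76 (SE 0.335). For Dnmt1 the interaction was 0.03 (SE 0.213) and for Uhrf1 -0.03 (SE 0.474).

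In mock cells, silencing genes were mostly a little higher in KO than in WT libraries, and none passed the test. KO minus WT was above 0 for 38 of 45 members, as it was for 66.6% of all genes. The members' median was 0.13 against 0.06 over all 10648 genes. Related gene sets had similar shifts. KO minus WT was above 0 for 25 of 27 Trithorax and H3K4 methylation genes (median 0.14) and 26 of 30 NuRD, SIN3 and CoREST corepressor genes (0.10). The same held for 27 of 32 other heterochromatin and DNA methylation genes (0.09), 19 of 26 other Polycomb genes (0.07) and 7 of 9 demethylases of H3K4 and H3K36 (0.11). No member and no gene passed limma's test without the block, where 440 genes (4.13%) had an unadjusted p under 0.05. With the block 98 genes (0.92%) passed and again no member. All 3 KO libraries lay above all 3 WT libraries for 6 members (Aebp2, Rnf2, Phc3, Cbx1, Dnmt1 and Ehmt1), and none lay wholly below. Over all genes such separation occurred in 8.25% upward and 1.74% downward. Within every one of the 3 same-numbered pairs KO exceeded WT for 28 of 45 members, against 35.3% of all genes. Dnmt1 came nearest to the threshold, with a difference of 0.29 and pair differences of 0.27, 0.36 and 0.25 (adjusted p = 0.978 without and 0.0669 with the block). Ezh2 followed, with 0.39 and pair differences of 0.53, 0.31 and 0.32 (adjusted p = 0.0693 with the block). Without pair 3 the blocked test called 14 members, all higher in KO, and 22.9% of all genes. Of all genes, 1648 were then called higher in KO and 790 lower.

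After doxorubicin no member passed the test between genotypes without the block, nor did any of the 11125 genes, of which 1246 (11.2%) had an unadjusted p under 0.05. KO minus WT was above 0 for 28 of 43 members and 54.2% of all genes, with medians of 0.17 and 0.03. The groups did not overlap for 4 members higher and 3 lower in KO, against 9.7% and 6.64% of all genes. With the block 11 members were higher in KO and 1, Jarid2, was lower. The blocked background was 11.8% higher and 13.6% lower, or 25.3% in either direction, against 27.9% of the members. The 11 were Rbbp4, Ring1, Phc3, Cbx6, Asxl1, Cbx3, Cbx5, Dnmt1, Ehmt1, Setdb1 and Trim28. Cbx6 had the smallest adjusted p, with pair differences of 0.42, 0.47 and 0.40 (adjusted p = 0.0136 with and 0.444 without the block). Dnmt1 was at 41.0, 34.1 and 29.2 CPM in WT and 49.97, 43.2 and 37.4 CPM in KO, with pair differences of 0.28, 0.33 and 0.35 (adjusted p = 0.0359 with and 0.467 without the block). Its groups overlapped, while each KO library exceeded the WT library of its number. Jarid2 was at 23.7, 28.1 and 33.9 CPM in WT and 18.3, 20.7 and 23.1 CPM in KO, with no overlap (difference -0.44, adjusted p = 0.0241 with and 0.443 without the block). The blocked calls depended on the pairs, since leaving out pair 1, 2 or 3 left 0, 5 and 2 members called, and 6.22%, 23.3% and 14% of all genes.

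**Figure D3:**
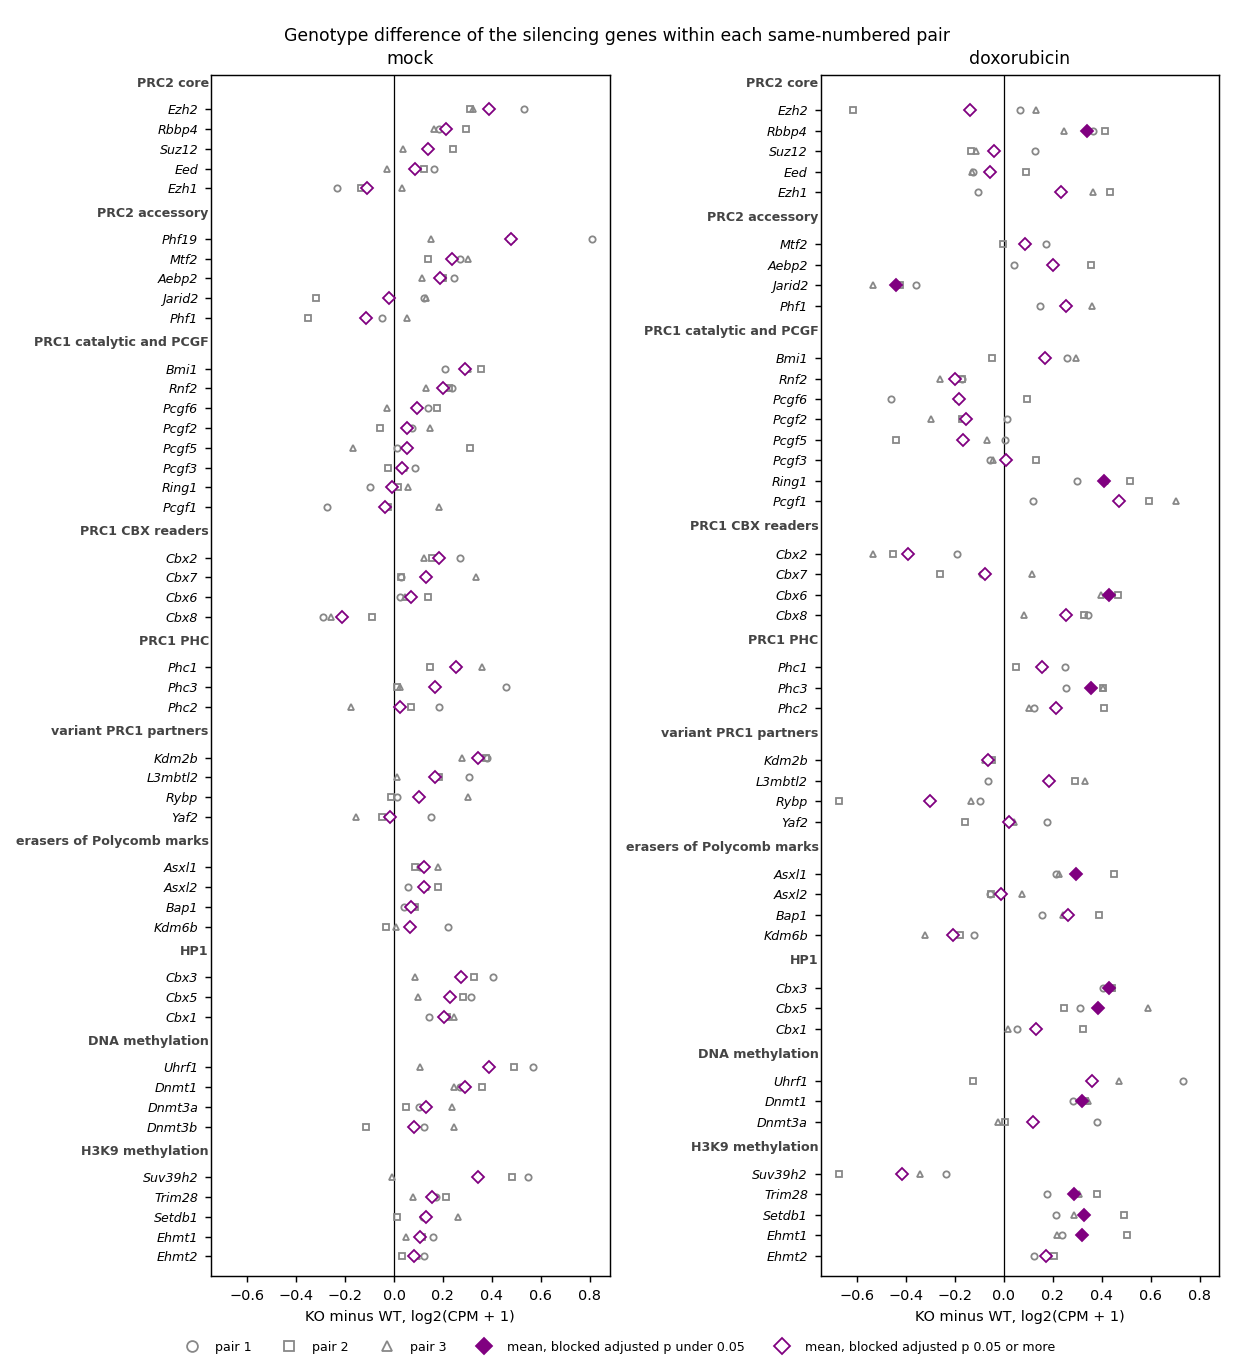
KO minus WT difference in log2(CPM + 1), on the x axis, within each same-numbered pair (grey markers) and on average (diamonds), for 45 genes in mock cells (left) and 43 after doxorubicin (right); filled diamonds have a blocked adjusted p under 0.05. No diamond is filled in mock cells and 12 are after doxorubicin, of which Jarid2 alone lies below 0.

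For 4 members all 3 pairs pointed one way in mock cells and the other way after doxorubicin. How many of all genes did the same was not counted, so these 4 have no background to be set against. Rnf2 was higher in KO by 0.24, 0.23 and 0.13 in mock pairs and lower by -0.17, -0.17 and -0.26 in treated pairs. Cbx2 was higher by 0.27, 0.16 and 0.12 and then lower by -0.19, -0.45 and -0.53. Kdm2b, which brings variant PRC1 to CpG islands, was higher by 0.38, 0.38 and 0.28 and then lower by -0.07, -0.05 and -0.08. Cbx8 went the opposite way, from -0.29, -0.09 and -0.26 to 0.34, 0.33 and 0.08. None of these shifts passed the interaction test (smallest adjusted p = 0.922 without and 0.387 with the block).

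In mock cells several members had their highest level in the same replicate as the proliferation genes. Replicate 2 had the highest level in both genotypes for 18 of 45 members in mock cells (40%), against 28.1% of all genes. Those 18 included Ezh2, Suz12, Rbbp4, Uhrf1, Dnmt1, Phf19, Suv39h2 and all 3 HP1 genes. The 30 proliferation genes in both tables summed to 1384, 1995 and 1398 CPM in mock WT and 1819, 2726 and 1539 CPM in mock KO libraries, also highest in replicate 2 of each genotype. After doxorubicin replicate 2 was highest in both genotypes for 8 of 43 members (18.6%), against 21% of all genes, and replicate 1 for 16 (37.2%), against 24.1%. The proliferation genes then summed to 539, 1315 and 652 CPM in WT and 492, 688 and 480 CPM in KO. Between genotypes 34 of 35 proliferation genes were higher in KO in mock cells (median 0.33), and 26 of 30 were lower in KO after doxorubicin (median -0.49). Ccnb2, Aurkb, Cdc6, Gmnn and Gins1 were listed in mock cells alone. Of all genes, 66.6% were higher in mock cells and 45.8% lower after doxorubicin. In both treatments no proliferation gene passed without the block. With it 2 passed as higher in mock cells, and 12 as lower and 1 as higher after doxorubicin. Of all genes, the block called 0.563% higher in mock cells, and 13.6% lower and 11.8% higher after doxorubicin. In treated WT replicate 2, with the high proliferation sum, Ezh2 was at 42.5 CPM, near mock levels, while Uhrf1 was at 11.1 CPM, below every mock library. Eed was at 80.8 CPM there, above every mock library. The part of proliferation in the members' differences was not tested.

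**Figure D4:**
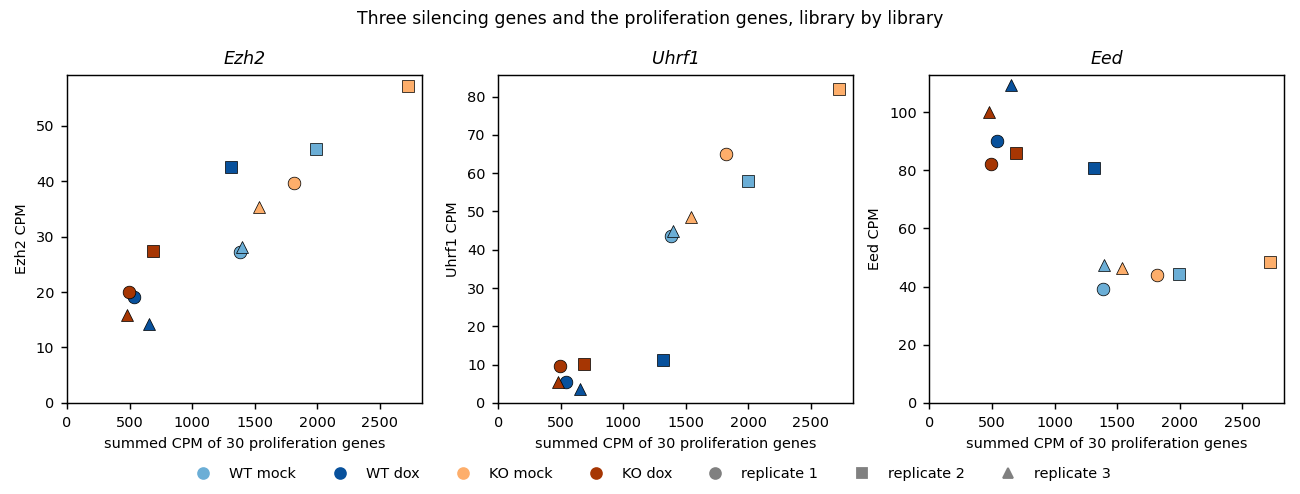
CPM of Ezh2, Uhrf1 and Eed (y axes) against the summed CPM of 30 proliferation genes (x axis) in each of the 12 libraries, coloured by group and shaped by replicate number. Treated WT replicate 2 lies at a sum of 1315 CPM, with Ezh2 near the mock libraries and Uhrf1 and Eed near the treated ones.

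Related gene sets were compared with the same test, gene by gene, and no test of a whole set was run. After doxorubicin 25.9% of all genes rose and 21.4% fell in WT, and 19.9% rose and 14.6% fell in KO. Of 26 other Polycomb genes measured, 11 rose and 3 fell after doxorubicin in WT, and 8 rose and 2 fell in KO. Sfmbt1 rose from 21.2 ± 3.77 to 51.5 ± 3.75 CPM in WT (difference 1.26, adjusted p = 0.000115) and in KO from 22.2 ± 3.39 to 40.5 ± 3.54 CPM (0.84, adjusted p = 0.00206). Scmh1 rose from 32.1 ± 2.70 to 64.2 ± 10.3 CPM in WT and from 36.1 ± 2.62 to 62.2 ± 2.79 CPM in KO. Of 32 other heterochromatin and DNA methylation genes, 6 rose and 10 fell in WT, and 5 rose and 7 fell in KO. Hells, the remodeller that supports DNA methylation, fell from 35.4 ± 9.60 to 6.95 ± 3.26 CPM in WT (difference -2.24) and in KO from 45.8 ± 12.6 to 8.05 ± 2.45 CPM (difference -2.38). Chaf1a, a replication-coupled histone chaperone that binds HP1, fell in both genotypes, by -1.51 in WT and -1.56 in KO on the log2 scale. Lrwd1, encoding a protein associated with the origin recognition complex and heterochromatin, rose from 29.4 ± 0.801 to 103 ± 35.7 CPM in WT. In KO it rose from 33.3 ± 3.24 to 73.8 ± 26.1 CPM.

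Of 30 NuRD, SIN3 and CoREST corepressor genes, 5 rose and 8 fell in WT, and 2 rose and 9 fell in KO. Over all genes the shares were, again, 25.9% risen and 21.4% fallen in WT, and 19.9% and 14.6% in KO. Of 27 Trithorax and H3K4 methylation genes, the counterpart of Polycomb, 1 rose and 7 fell in WT, and 0 rose and 10 fell in KO. Smarcb1, a core subunit of the SWI/SNF remodeller, fell from 78.0 ± 2.05 to 41.9 ± 7.34 CPM in WT and from 86.4 ± 4.01 to 58.0 ± 6.36 CPM in KO. Of 9 demethylases of H3K4 and H3K36, Kdm5a rose from 71.9 ± 1.24 to 108 ± 2.32 CPM in WT and from 77.3 ± 3.27 to 108 ± 3.87 CPM in KO. Kdm4a fell from 128 ± 9.46 to 68.0 ± 15.2 CPM in WT and from 139 ± 9.16 to 98.7 ± 17.2 CPM in KO. With the block the WT counts became 5 risen and 9 fallen for the Trithorax genes, and 2 and 2 for the demethylases. Of all genes, 32.1% rose and 28.2% fell in WT with the block. Between genotypes no gene of these 5 sets was called without the block in either treatment, nor with it in mock cells. After doxorubicin, with the block (11.8% of all genes higher and 13.6% lower), 2 other Polycomb genes were higher in KO and 3 lower. The counts were 5 and 5 for the heterochromatin genes, 7 and 1 for the corepressors, 3 and 1 for the Trithorax genes, and 1 and 0 for the demethylases.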

How the data were processed

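RNA-seq was measured in 12 libraries of 4 groups. Per the submitters' processing notes, TopHat2 2.0.6, HTSeq, edgeR and the build NCBIM37 were used. The names of both deposited tables carry noYX, which would mean that genes of chromosomes X and Y were left out. This was not checked, and all genes here means all genes listed. The values are CPM, as the authors deposited them in 2 tables, each with genes above 2 CPM in its WT libraries. From these, log2(CPM + 1) values were fitted with limma 3.58.1 (R 4.3.3, mean-variance trend) over all genes, with Benjamini-Hochberg adjustment and a threshold of 0.05. Genotypes were compared within each table (6 libraries), and treatments and the interaction over all 12 libraries and the genes in both tables. The replicate block pairs libraries of the same number. In the 12-library fits it is the number within a genotype. The labels do not state a pairing. All same-numbered libraries deviated together (correlations of deviations from group means 0.342 to 0.856), so blocked values are given where they change a call. Between different numbers the correlations were -0.732 to -0.0065. Deviations sum to 0 in each group, so positive values for the same number push these below 0. The members and lists were chosen with earlier results of these data known. Any member could be named, and of each other list at most 4 genes per comparison, those called with the largest difference. The spacing of CPM values gave whole reads within 0.001 for 100% of values, from which depths were taken. No count test was run. Promoters were searched for fixed motifs on both strands. Scripts were tested on simulated data. Pseudocounts, filters, scalings, blocks and left-out libraries were varied.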

Additional observations from a re-analysis of the deposited data

How the results depend on the processing

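With the replicate block, 12 members (27.9%) and 25.3% of all genes were called between genotypes after doxorubicin, against 0 without it. The block without pair 1, 2 or 3 called 0, 5 and 2 members, and 6.22%, 23.3% and 14% of all genes. In mock cells the block called 0 members and 0.92% of all genes. Without pair 3 it called 14 members and 22.9% of all genes. Blocking by number alone, chosen after seeing the data, called 26 members for doxorubicin in WT, against 17, and 63.7% of all genes. Leaving out 1 library at a time gave 7 to 15 member calls for doxorubicin in KO, against 16. Of all genes, 24.7% to 32.2% were then called, against 34.5% with all libraries. The cause was not tested. Counts of members called between genotypes, without the block, and in the interaction stayed at 0 under a pseudocount of 0.1, a mean of at least 5 CPM, both scalings and each left-out library. No member called with or without the block turned its direction in any setting run. The planned count tests on recovered reads were not run. Reads per library, 14327048 at least, and 3 libraries per group limit the precision of members near 2 CPM.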
